A study of Hordeum vulgare with 32 samples.

Results

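The NB-ARC immune receptor transcripts of the barley (Hordeum vulgare) shoot apex were defined by annotation. They are the rows of the deposited expression table whose Arabidopsis or rice match is described with the words NB-ARC or NBS-LRR. The rule found 170 of 30174 transcripts. Total RNA of the main shoot apex was sequenced in 32 libraries. There were 4 introgression lines, named int-a.1 (GSHO 2055), vrs4.k (GSHO 1986), vrs1 (GSHO 1907) and int-c.5 (GSHO 2003) after their row-type alleles and stocks. Each had 3 libraries per stage, W3.5 or W5.5 of the Waddington scale, which scores how far the inflorescence has developed. Their recurrent parent, the 2-rowed cultivar Bowman, had 4 libraries at each stage. No plant was treated, and all had long days (16 h light, 22 °C) with nights of 8 h (18 °C). Each line is a single stock with a donor allele of a row-type locus in Bowman, and the sources used here do not say how much other donor DNA it holds, so the allele and that DNA cannot be told apart.

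NB-ARC proteins are the main intracellular immune receptors of plants. The NB-ARC module binds a nucleotide and acts as a switch: with ADP the receptor is off, and with ATP it is on and assembles into larger complexes that lead to calcium influx and often to cell death. A leucine-rich repeat part follows the switch, and a coiled-coil or a TIR domain precedes it; grasses have almost exclusively the coiled-coil type. Receptor genes often stand in clusters of near-identical copies and differ in presence and sequence between cultivars.

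Of the 170 transcripts, 165 met the rule through the Arabidopsis description and 5 through a rice description alone. High-confidence gene models made up 99, low-confidence models 64, and 7 had no class. A chromosome was given for 110. An Arabidopsis gene was named for 120, of which 25 matched RPM1, a receptor that guards the immune regulator RIN4 against bacterial effectors. A further 24 matched AT3G14470 and 14 matched AT3G14460. RPP13, a downy mildew resistance gene, was the match of 10, and ZAR1, whose activated complex is a calcium channel, of 7. RPP8, another downy mildew resistance gene, was the match of 3, and RPS2, a guard of RIN4, of 2. The coiled-coil class was named for 8 members and the TIR class for 1. The rice descriptions referred to RGH1 or MLA, genes of the barley powdery mildew locus Mla, in 20 members, and to RGH2 of the same locus in 14. Other cereal genes named there were the leaf rust gene Lr10 (11 members), the rice bacterial blight gene Xa1 (8) and the stripe rust gene Yr10 (6).

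The members were not independent sequences: 135 shared their Brachypodium match with another member, and 1 Brachypodium gene was the match of 14. Reads of near-identical copies may be divided among them. The label went against the annotation in 4 members, MLOC_1187.1, MLOC_35138.3, MLOC_63622.1 and MLOC_23231.2. Their Arabidopsis match was a TTF-type zinc finger protein with a hAT dimerisation domain, a transposase-type protein, and they entered through the rice description.

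Levels are in TPM, a unit scaled for transcript length and library total. The median member had a mean of 5.19 TPM over the 32 libraries, against 9.81 TPM for the median of all transcripts. Means ranged from 0.680 to 54.6 TPM; 32 members reached 10 TPM, 8 reached 20, and 83 stayed below 5. In 165 members no library was listed at 0. Together the members had 975.5 to 1518 TPM per library, or 0.0988% to 0.155% of its total.

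The highest level was that of MLOC_49085.1, a low-confidence model described in rice as RGH2B, which had 54.6 TPM on average and 36.5 to 73.5 TPM across libraries. MLOC_26049.1, a low-confidence model described as xa1, followed with 41.9 TPM (24 to 58.2). The next were MLOC_1187.1 (30.4 TPM) and MLOC_35138.3 (26.1 TPM), both with the hAT-type match and both on chromosome 6 (map positions 55.45 and 56.41). MLOC_23781.1 on chromosome 2 (2.27), a high-confidence model, had 25.4 TPM (18.0 to 33.6). These neighbours in the order overlapped in their library ranges. Among the named Arabidopsis matches, the highest member was MLOC_13441.2 for RPM1 (20.5 TPM), AK249764.1 for RPP13 (15.0 TPM) and MLOC_54234.1 for ZAR1 (10.5 TPM). The median level was 4.5 TPM over the RPM1 matches, 4.35 TPM over the RPP13 matches and 4.00 TPM over the ZAR1 matches.

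**Figure D1:**
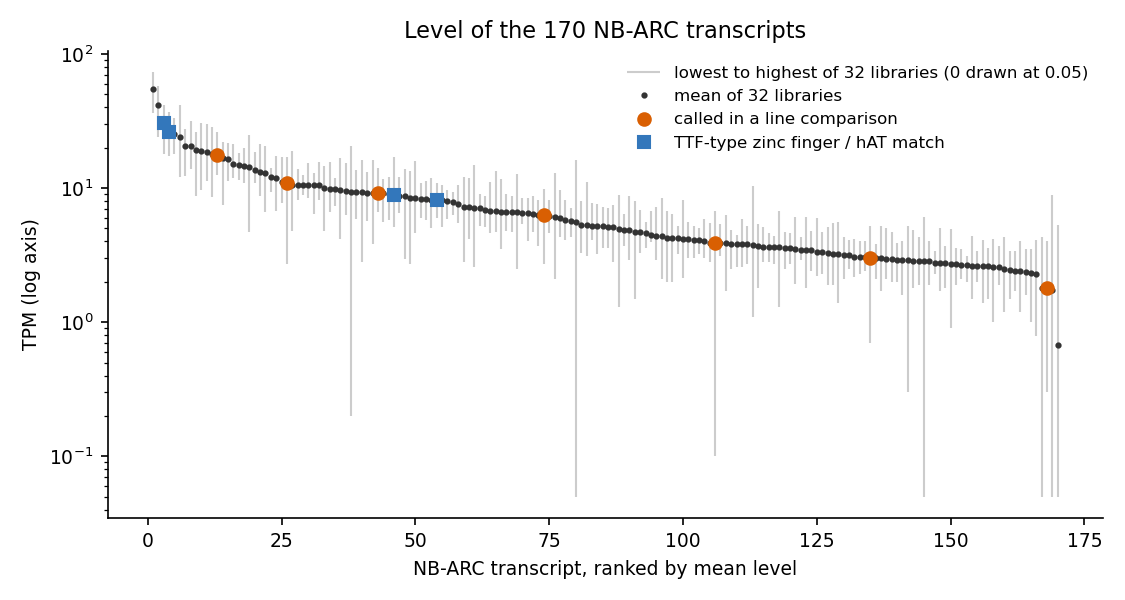
Mean TPM over 32 libraries (log axis) of each of the 170 NB-ARC transcripts, ranked from highest to lowest, with grey bars from the lowest to the highest library. Orange points are the 7 members that differed from Bowman in a line comparison, and blue squares are the 4 members with a hAT-type match, of which 2 are among the 5 highest.

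Most members kept a similar level in all groups. The ratio of the highest to the lowest of the 10 group means was 1.45 in the median member, and 148 members had all 10 group means within 2-fold. Only 5 members spanned more than 4-fold. The SD of log2(TPM + 1) within a group had a median of 0.216 over members and 0.250 over all transcripts.

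The libraries were not equally typical of their stage. The first principal component (24.25% of the variance) placed 4 libraries beyond the median of the other stage: at W3.5 replicate 2 of vrs4.k, replicate 1 of int-a.1 and replicate 4 of Bowman, and at W5.5 replicate 1 of int-c.5. The 7 transcripts found for the shoot meristem markers KNAT1, KNAT6, CLV1 and LFY were listed above 0 in every group, with summed levels of 61.95 to 146.8 TPM per library. None matched STM. Their median log2 fold against Bowman in int-c.5 was -0.40 at W3.5 and -0.21 at W5.5, against -0.04 and -0.03 for all transcripts. In the other lines it lay between -0.31 (vrs1 at W3.5) and 0.10 (vrs4.k at W5.5). What these shifts contribute to the line comparisons was not tested. Replicates are samples that the labels list separately; nothing states that they came from separate plants, so p-values measure the spread between these samples.

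Each line was compared with Bowman to ask which receptor transcripts differ between near-isogenic row-type lines. A transcript is called here when the limma test on log2(TPM + 1), adjusted by the Benjamini-Hochberg method over all 30174 transcripts, gave an adjusted p below 0.05. Fold changes are on that log2 scale, which understates changes of low transcripts. Of the 170 members, 7 were called in at least 1 of 12 comparisons (each line at W3.5, at W5.5 and averaged over both), and 163 in none. No share of all transcripts is given for the 12 together, so this count is not set against a background. In single comparisons that share was between 0.0994% (int-c.5 at W3.5) and 2.13% (int-a.1 averaged over stages). All comparisons share the Bowman libraries. In bulk tissue, fewer cells of a type and less RNA per cell cannot be told apart.

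In vrs4.k, 2 of 170 members fell at W3.5, where 0.653% of all transcripts were called and 0.481% fell. At W5.5 likewise 2 fell, where 0.696% of all transcripts were called and 0.55% fell. They were the same 2 transcripts, MLOC_64709.2 and MLOC_4344.2, both high-confidence models whose Arabidopsis match is RPP13.

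MLOC_64709.2 (chromosome 5, map position 166.3) had 0.3, 0.2 and 0.3 TPM in vrs4.k at W3.5, against 3.3, 4.0, 4.0 and 4.3 TPM in Bowman. At W5.5 it had 0.1, 0.2 and 0.6 TPM in vrs4.k, against 4.8, 5.8, 5.7 and 5.9 TPM in Bowman. All 6 vrs4.k libraries were therefore far below all 8 Bowman libraries. The vrs4.k mean was 6.84% of the Bowman mean at W3.5 (0.267 ± 0.0577 TPM, SD, n = 3, against 3.9 ± 0.424 TPM, n = 4) and 5.41% at W5.5. The log2 fold change was -1.95 (SE 0.149, limma adjusted p = 5.47e-09) at W3.5 and -2.35 (SE 0.149, limma adjusted p = 2.35e-10) at W5.5. In the 26 libraries of the other 4 lines it ranged from 3.2 to 6.7 TPM.

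MLOC_4344.2 (chromosome 7, 1.91) had 2.7, 4.3 and 3.1 TPM in vrs4.k at W3.5, against 10.7, 11.1, 11.4 and 10.5 TPM in Bowman. At W5.5 the vrs4.k libraries had 2.8, 4.5 and 5.3 TPM, against 13.1, 14.5, 14.5 and 14.3 TPM in Bowman. The groups again did not overlap, but the remaining level was higher than for MLOC_64709.2, at 30.8% of Bowman at W3.5 and 29.8% at W5.5. Its log2 fold change was -1.47 (SE 0.129, limma adjusted p = 6.25e-08) at W3.5 and -1.57 (SE 0.129, limma adjusted p = 1.89e-08) at W5.5. The other 26 libraries ranged from 9.9 to 17 TPM. Both calls of both transcripts held in all 40 alternative settings.

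The pair has more in common than its Arabidopsis match. Both have the Brachypodium match Bradi2g09427.1 and the rice match LOC_Os11g27430.1, which they share with 1 other member, MLOC_79489.1 (chromosome 7, 0.21). The deposited positions put the pair on different chromosomes, and the sources used here do not say how reads of such copies were divided. The level of MLOC_64709.2 divided by that of MLOC_4344.2 was between 0.0357 and 0.113 in all 6 libraries of vrs4.k, against 0.283 to 0.467 for the 26 others, so the pair did not fall in proportion. MLOC_79489.1 had 14.9, 19.7 and 11.3 TPM in vrs4.k at W3.5, against 20.9, 15.7, 24.2 and 14.4 TPM in Bowman, and these groups overlapped (log2 fold -0.28, limma adjusted p = 0.663). At W5.5 its fold was -0.24 (limma adjusted p = 0.725). The 8 other RPP13 matches had log2 folds between -0.24 and -0.02 averaged over both stages, with a smallest limma adjusted p of 0.43.

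**Figure D2:**
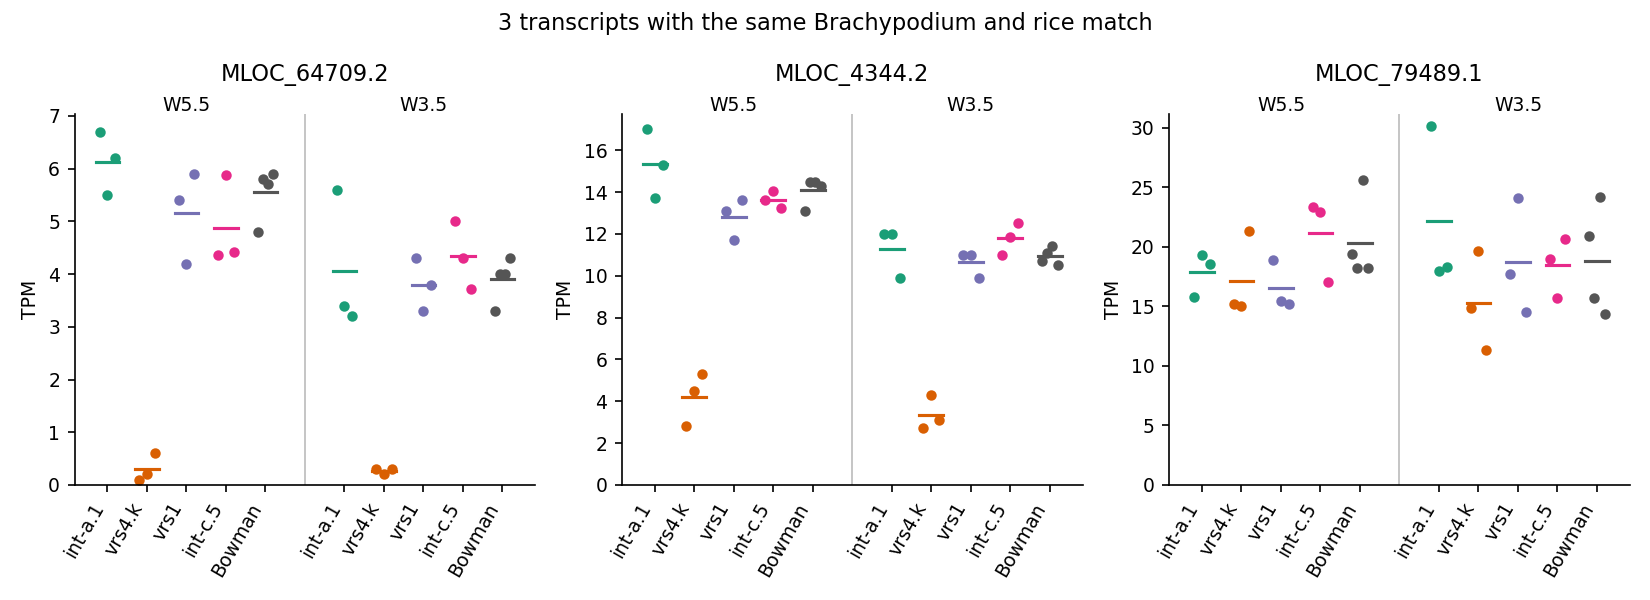
TPM of MLOC_64709.2, MLOC_4344.2 and MLOC_79489.1, which share a Brachypodium and a rice match, in every library (points) with the group mean (bars), by line at W5.5 (left of each panel) and W3.5 (right). In MLOC_64709.2 and MLOC_4344.2 all vrs4.k libraries lie below all other libraries, and in MLOC_79489.1 the groups overlap.

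Averaged over both stages, vrs4.k had 4 members lower and 0 higher, with 1.54% of all transcripts called and 1.2% lower. Besides the pair these were MLOC_71780.1 and MLOC_66846.1, both on chromosome 2 (8.57 and 2.12). MLOC_71780.1, a low-confidence model with the AT3G14460 match, had 1.6, 0.6 and 1.1 TPM in vrs4.k at W3.5, against 4.0, 3.4, 1.5 and 3.2 TPM in Bowman, where 1 library of each group crossed. At W5.5 it had 0.9, 0.8 and 0.3 TPM in vrs4.k, against 1.1, 1.9, 2.9 and 2.2 TPM in Bowman. In int-a.1 it had the same mean as in vrs4.k at W3.5 (1.1 TPM, libraries 0.8 to 1.6), and 1.2 to 2.0 TPM at W5.5. Over both stages it had 1.5 to 3.4 TPM in vrs1 and 1.0 to 2.32 TPM in int-c.5. The averaged fold in vrs4.k was -0.88 (SE 0.18, limma adjusted p = 0.00692). That call was lost with quantile normalization and without the 4 libraries beyond the median of the other stage. MLOC_66846.1, named after its values were seen, had 12.6 to 16.8 TPM over all 6 libraries of vrs4.k, against 16.7 to 26.2 TPM in the 8 Bowman libraries (log2 fold -0.46, SE 0.118, limma adjusted p = 0.0475). The F test over all 4 lines did not call MLOC_66846.1 (adjusted p = 0.241).

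In vrs1, 1 member rose at W3.5 (0.341% of all transcripts called, 0.0464% higher) and the same member rose at W5.5 (0.325% called, 0.0563% higher). It was MLOC_77081.1, a high-confidence model on chromosome 6 (49.22) with the AT3G14470 match. It had 12.6, 13.7 and 12.9 TPM in vrs1 at W3.5, against 7.5, 8.1, 7.5 and 7.2 TPM in Bowman. At W5.5 it had 11.5, 14.2 and 11.5 TPM in vrs1, against 8.3, 8.4, 9.2 and 7.8 TPM in Bowman. The groups did not overlap at either stage, and the 26 libraries outside vrs1 stayed between 6.6 and 10.1 TPM. The vrs1 mean was 172% of the Bowman mean at W3.5 (log2 fold 0.71, SE 0.103, limma adjusted p = 0.000236) and 147% at W5.5 (0.50, SE 0.103, limma adjusted p = 0.0176).

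Averaged over both stages, where 0.497% of all transcripts were called in vrs1 and 0.0994% were higher, MLOC_77081.1 was the member called (log2 fold 0.61, limma adjusted p = 5.51e-06), and that call held in all 40 settings. At W5.5 alone, leaving out vrs1 replicate 2 or Bowman replicate 1, 2 or 4 of that stage ended the call, with folds of 0.41 to 0.55 over the fits that left out 1 library. With only the compared groups in the fit, it was lost at both stages.

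The int-a.1 libraries differed among themselves in several receptor transcripts, which were picked out after their values were seen. MLOC_4500.2, a high-confidence model on chromosome 1 (48.09) with the AT3G14460 match, had 0.2, 13.9 and 12.8 TPM at W3.5 and 0.5, 9.9 and 8.0 TPM at W5.5 in int-a.1, while the 26 other libraries had 5.7 to 20.5 TPM. The low values were those of replicate 1 at each stage. MLOC_28524.1, a low-confidence model without a position, had 0, 5.3 and 4.0 TPM in the int-a.1 libraries of W3.5, against 0, 0, 0.7 and 2.2 TPM in Bowman. At W5.5 it had 1.1, 3.3 and 2.0 TPM in int-a.1, against 0, 0, 0 and 1.0 TPM in Bowman. All 6 libraries of vrs4.k list it at 0, and it was also at or near 0 in vrs1 (0 to 1.0 TPM) and int-c.5 (0 to 1.17 TPM). MLOC_28524.1 was called by the F test (adjusted p = 0.0309) but in no single comparison. MLOC_34239.2 on chromosome 7 (126.6), a low-confidence model of the coiled-coil class, had 0, 8.9 and 2.9 TPM at W3.5 and 1.2, 6.2 and 3.3 TPM at W5.5 in int-a.1, against 0 to 2.1 TPM in the 8 Bowman libraries (F test adjusted p = 0.417). A wide spread of MLOC_34239.2 was not particular to int-a.1. In vrs1 at W3.5 it had 1.8, 5.6 and 0 TPM, and in int-c.5 it reached 3.03 TPM. In vrs4.k it stayed between 0 and 1.2 TPM. In MLOC_4500.2, MLOC_28524.1 and MLOC_34239.2, replicate 1 was thus the lowest int-a.1 library at both stages; the numbers are names and do not pair the stages.

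In int-a.1, limma called 0 members at W3.5, where 0.653% of all transcripts were called and 6 members (3.53%) had an unadjusted p under 0.05, against 8.75% of all transcripts. It called 1 without replicate 1 of int-a.1 at W3.5 or at W5.5, or replicate 3 of Bowman at W3.5. With library weights it called 13 members, where 9.07% of all transcripts were called. At W5.5 it called 1 member, against 0.709% of all transcripts (0.597% lower). This was AK249642.1, a high-confidence model on chromosome 7 (124.6) with the RPM1 match and an Lr10 description. It had 4.6, 0.7 and 0.9 TPM in the W5.5 libraries of int-a.1, against 4.0, 5.1, 4.8 and 5.2 TPM in Bowman, so 1 int-a.1 library lay within the Bowman range and 2 far below it (log2 fold -1.13, SE 0.251, limma adjusted p = 0.0248). The library within the range was again replicate 1, and without it the fold was -1.68. At W3.5 it had 2.7, 1.3 and 1.5 TPM in int-a.1, against 2.8, 2.8, 3.6 and 4.2 TPM in Bowman (log2 fold -0.64, limma adjusted p = 0.397). The lower level was not particular to int-a.1, although no other line was called. At W5.5 AK249642.1 had 3.0 to 3.6 TPM in vrs4.k, 2.4 to 3.5 TPM in vrs1 and 2.22 to 3.14 TPM in int-c.5, all below Bowman. At W3.5 int-c.5 was also wholly below Bowman (2.0 to 2.12 TPM), while vrs4.k (3.2 to 3.9 TPM) and vrs1 (2.5 to 3.4 TPM) overlapped it. Leaving out int-a.1 W5.5 replicate 2 or 3, or replicate 2, 3 or 4 of Bowman at that stage, ended the W5.5 call, with folds of -1.68 to -0.82 over the fits that left out 1 library. Averaged over both stages, 1 member, the same transcript, was called against 2.13% of all transcripts, with 1.8% lower (log2 fold -0.89, limma adjusted p = 0.00493); the count reached 4 without int-a.1 W3.5 replicate 1, and 2 without int-a.1 W5.5 replicate 1, replicate 2 of int-a.1 at W3.5, replicate 4 of Bowman at either stage, Bowman W5.5 replicate 1 or replicate 3 of int-c.5 at W3.5. Shares of all transcripts in the fits that left out 1 library are not given here. With library weights 14 members were called, where 10.3% of all transcripts were.

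In int-c.5, 1 member fell at W3.5 (0.0994% of all transcripts called, 0.0563% lower). At W5.5 limma called 0 (0.106% of all transcripts), with 2 members (1.18%) at an unadjusted p under 0.05, against 5.35% of all transcripts. The member was MLOC_27405.1, a low-confidence model with the AT3G14470 match and no map position. It had 4, 4.01 and 2.73 TPM in int-c.5 at W3.5, the first deposited as a whole number. Bowman had 9.6, 5.9, 9.1 and 7.6 TPM, without overlap (log2 fold -0.98, SE 0.198, limma adjusted p = 0.0477). At W5.5 it had 6.69, 5.24 and 3.67 TPM in int-c.5, against 6.7, 9.1, 6.3 and 9.0 TPM in Bowman (log2 fold -0.51, limma adjusted p = 0.892). The W3.5 call stood close to the threshold and was lost in 28 of 40 settings, 23 of them with 1 library left out. Averaged over both stages, where 0.345% of all transcripts were called and 0.219% were lower, the fold was -0.75 (limma adjusted p = 0.0095). That call was lost with only the compared groups and without replicate 3 of int-c.5 at W3.5 or at W5.5. Without int-a.1 W5.5 replicate 1 the count was 2, for which no share of all transcripts is given here.

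**Figure D3:**
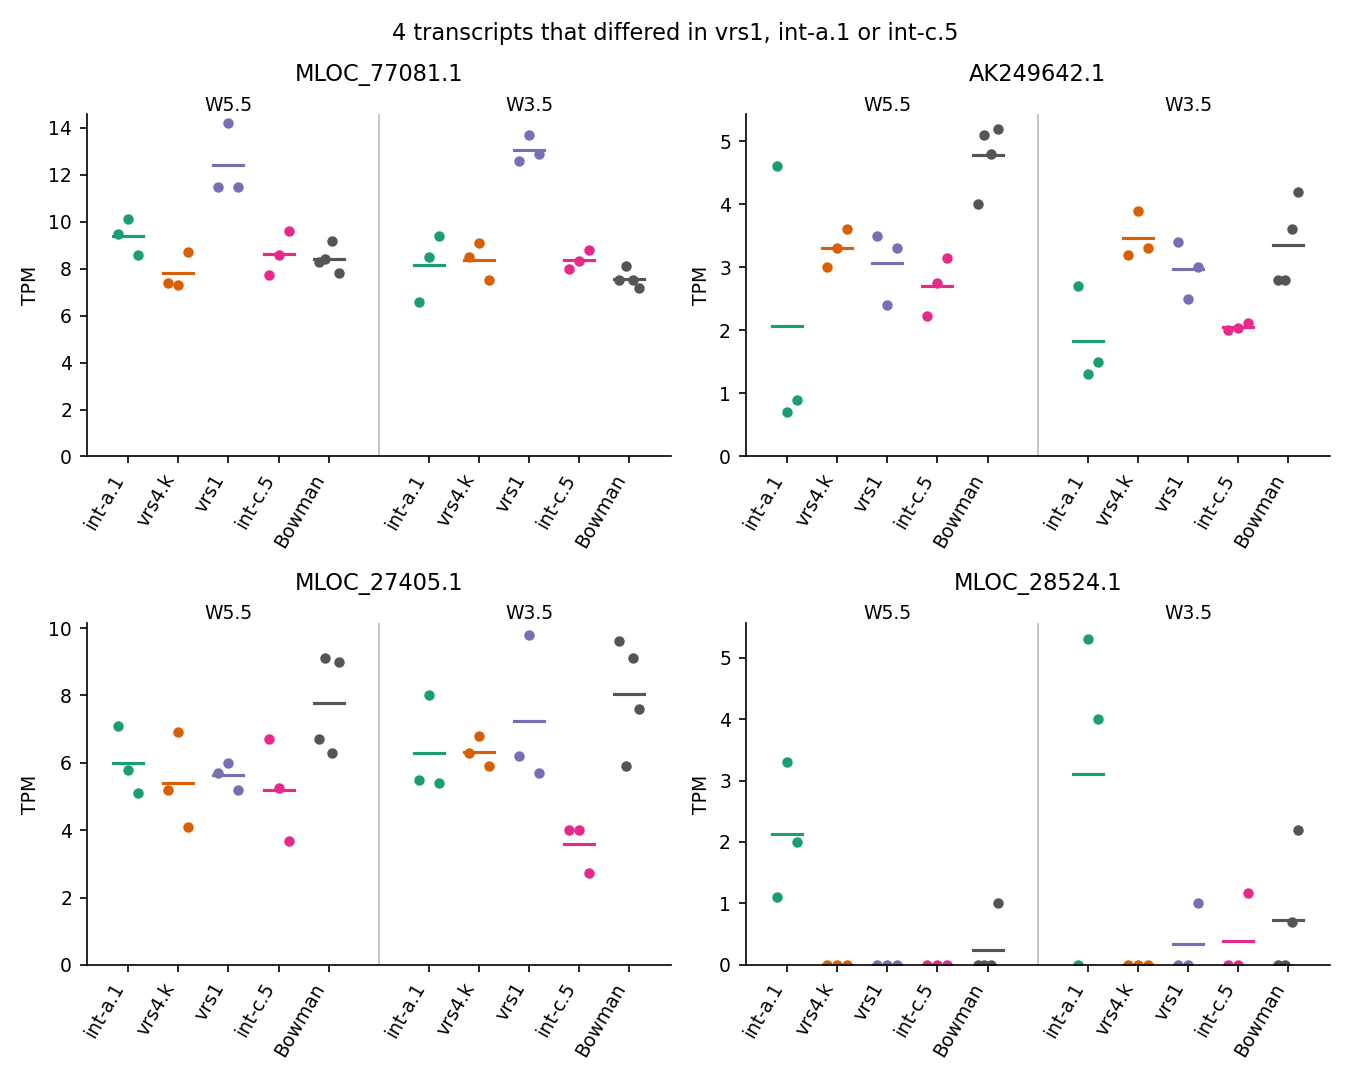
TPM of MLOC_77081.1, AK249642.1, MLOC_27405.1 and MLOC_28524.1 in every library (points) with the group mean (bars), by line at W5.5 (left of each panel) and W3.5 (right). MLOC_77081.1 is at 11.5 to 14.2 TPM in vrs1 and at most 10.1 TPM elsewhere, and the int-a.1 libraries are spread widely in AK249642.1 and MLOC_28524.1.

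The F test over the 4 lines, averaged over stages, called 8 members, or 4.71%, against 2.37% of all transcripts. The count was 5 without Bowman W5.5 replicate 2 or 3, int-a.1 W3.5 replicate 3 or int-a.1 W5.5 replicate 3. It was 4 without Bowman W5.5 replicate 4. Shares of all transcripts in those fits are not given here. With library weights the count was 40, where 24.9% of all transcripts were called. Besides the transcripts above it called MLOC_54116.6 (chromosome 2, 2.20; adjusted p = 0.0491), a low-confidence model. MLOC_54116.6 had 1, 0.992 and 0.789 TPM in int-c.5 at W3.5, against 1.1, 1.8, 2.2 and 1.7 TPM in Bowman. The first int-c.5 value was deposited as a whole number, so whether it lay below the Bowman library at 1.1 TPM cannot be told. All other W3.5 libraries had 1.8 to 3.5 TPM.

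At W5.5 the median log2 fold of the 170 members in vrs4.k was -0.18, against -0.06 for all transcripts, and 151 members (88.8%) were negative, against 61.1% of all transcripts. In 19 members (11.2%) every vrs4.k library lay below every Bowman library, as it did in 6.22% of all transcripts. The summed level of the members was 975.5, 1211 and 1296 TPM in vrs4.k at W5.5, against 1287, 1513, 1412 and 1280 TPM in Bowman. At an unadjusted p under 0.05 there were 30 members (17.6%), against 10.1% of all transcripts. The medians under other settings were computed after seeing the data. Over all 40 settings the vrs4.k median at W5.5 ranged from -0.24 to -0.07, with 111 to 159 members negative. Without vrs4.k W5.5 replicate 3 it was -0.24, against -0.08 for all transcripts, with 159 negative. Without replicate 1, the library with the lowest sum, it was -0.08, against -0.01, with 121 negative. With quantile normalization the vrs4.k median was -0.07, against 0.03 for all transcripts. At W3.5 the vrs4.k median was -0.04, against 0.03.

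In vrs1 at W5.5 the median was -0.09, against -0.03 for all transcripts, with 131 members (77.1%) negative, against 56% of all transcripts. Averaged over both stages 75.9% of members were negative in vrs1, against 54.3%. Over the 40 settings the vrs1 median at W5.5 ranged from -0.14 to -0.04, with 111 to 137 members negative. Averaged over both stages it ranged from -0.11 to -0.01, with 93 to 146 of the 170 members negative. At W5.5 in vrs1, 15 (8.82%) were wholly below Bowman, against 3.10% of all transcripts. Elsewhere the members wholly below Bowman numbered 3 (3.26% of all transcripts) in int-a.1 at W3.5 and 7 (7.30%) at W5.5, 5 (2.71%) in vrs4.k at W3.5, 1 (2.34%) in vrs1 at W3.5, and 6 (4.19%) in int-c.5 at W3.5 and 4 (4.44%) at W5.5. Those wholly above Bowman were 1 (2.28%) in int-a.1 at W3.5 and 3 (3.96%) at W5.5, 1 (2.53%) and 0 (3.24%) in vrs4.k, 4 (1.68%) and 1 (2.56%) in vrs1, and 1 (2.52%) and 3 (3.35%) in int-c.5. The median in int-a.1 was 0.02 at W3.5 (0.02 for all transcripts) and -0.07 at W5.5 (-0.03). In int-c.5 they were -0.06 and -0.02, against -0.04 and -0.03. These values describe the list and carry no test.

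**Figure D4:**
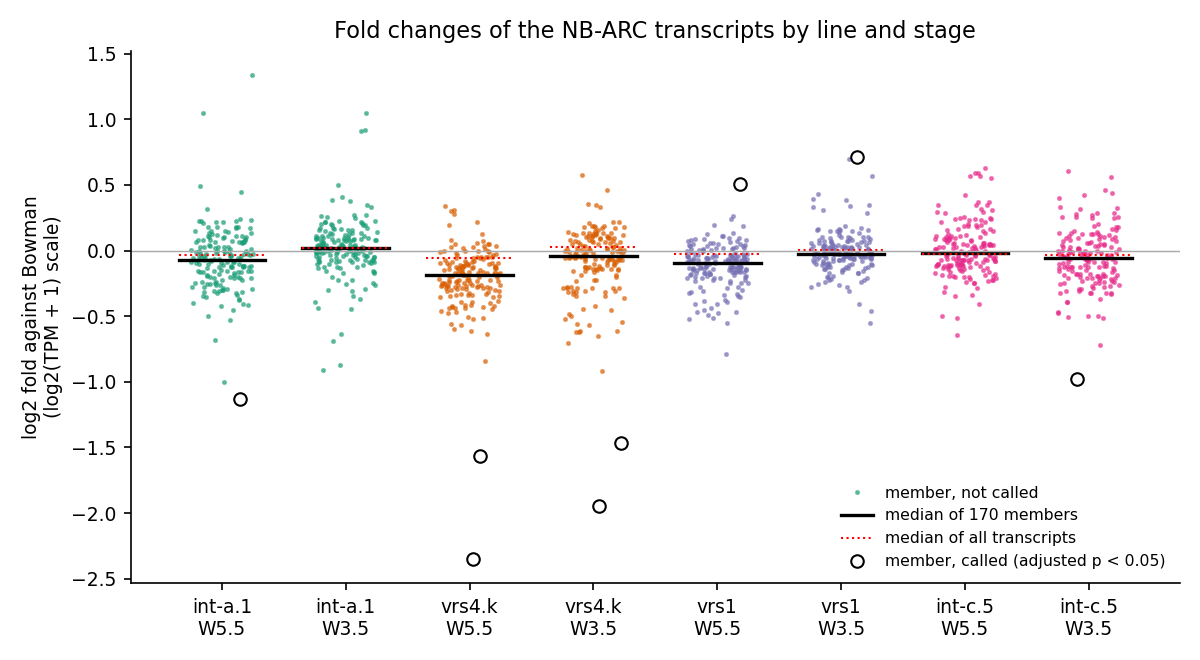
Log2 fold change against Bowman of each of the 170 NB-ARC transcripts (points) in the 4 lines at W5.5 and W3.5, with the median of the members (black) and of all 30174 transcripts (red dots); circles mark called members. The 2 lowest circles in each vrs4.k column are MLOC_64709.2 and MLOC_4344.2, and in vrs4.k at W5.5 the member median is -0.18, against -0.06 for all transcripts.

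The interactions asked whether a line's difference from Bowman changed between stages. Limma called 0 members in each of the 4 interactions, and 0.0% of all transcripts. At an unadjusted p under 0.05 there were 6 members for int-a.1, 9 for vrs4.k, 1 for vrs1 and 2 for int-c.5, or 3.53%, 5.29%, 0.588% and 1.18% of members in that order. The shares of all transcripts were 5.85%, 6.22%, 2.50% and 2.91%. For MLOC_64709.2 the interaction in vrs4.k was -0.40 (adjusted p = 0.753), and for MLOC_4344.2 it was -0.10 (adjusted p = 0.878).

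The members with a chromosome were spread over all 7, with 16 on chromosome 1, 27 on 2, 11 on 3, 11 on 4, 14 on 5, 10 on 6 and 21 on 7. No unit is given for the map positions. Many stood together, several groups of them near the start of a map: 11 lay between 2.12 and 8.57 on chromosome 2, 11 between 0.21 and 3.97 on chromosome 7, and 7 between 0.11 and 10.91 on chromosome 1. Called members stood in these groups too. MLOC_66846.1 and MLOC_71780.1, and MLOC_54116.6 of the F test, lay in that of chromosome 2, and MLOC_4344.2 in that of chromosome 7. In vrs4.k, whose 4 called members all had a position, 0 pairs of called members lay within 5 map units of each other.

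The share of neighbours called in the same comparison is given as a description, beside the share of all transcripts. Within 2 map units of MLOC_64709.2 there were 94 other transcripts, of which 0 were called in vrs4.k at W3.5 (0.653% of all transcripts), 1 (1.06%) at W5.5 (0.696%) and 2 (2.13%) averaged over stages (1.54%). None of the 94 was a member. Around MLOC_4344.2 there were 122, with 1 (0.82%) called in vrs4.k at W3.5 (0.653%) and 2 (1.64%) both at W5.5 (0.696%) and averaged over stages (1.54%). The 9 other members among them had log2 folds of -0.28 to 0.18 at W3.5 and of -0.34 to 0.05 at W5.5. Around MLOC_77081.1, 2 of 222 others (0.901%) were called in vrs1 at W3.5 (0.341% of all transcripts), and 1 (0.45%) both at W5.5 (0.325%) and averaged over stages (0.497%). Around AK249642.1, 3 of 84 others (3.57%) were called in int-a.1 at W5.5 (0.709%), and 6 (7.14%) averaged over stages (2.13%).

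The 5-unit window with the highest number of calls averaged over stages, picked in each line after the values were seen, held 0 called members in all 4 lines. The windows were chosen by number and not by share. In int-a.1 this was 43.34 to 48.34 on chromosome 1, with 27 of 618 transcripts called (4.37%); its 5 members, MLOC_4500.2 among them, had log2 folds of -0.84 to -0.04. In vrs4.k it was 57.05 to 62.05 on chromosome 2, with 20 of 1102 called (1.81%, against 1.54% of all transcripts) and 3 members at -0.11 to -0.04. The same window in vrs1 had 8 called (0.726%), and its 3 members had folds of -0.17 to 0.24. In int-c.5 the window from 18.27 to 23.27 on chromosome 4 had 4 of 37 called (10.8%) and 0 members.

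Between stages, averaged over the 5 lines, 15 members rose at W5.5 relative to W3.5 and 1 fell. Of all transcripts 11.7% rose and 4.87% fell, so the share of members called was below the background (9.41% against 16.6% in either direction). The rises were small, with log2 folds of 0.15 to 0.44, and 10 of them had a higher mean at W5.5 in all 5 lines. The median fold was 0.08 over members and 0.07 over all transcripts. Without the 4 hAT-type members, 13 of 166 rose and 1 fell.

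The largest rise was that of MLOC_56379.1 (chromosome 6, 24.5), a low-confidence model whose rice description names a blight resistance protein. It had a median of 6.79 TPM (4.5 to 13) in the 16 libraries at W5.5, against 5.00 TPM (2.1 to 8.1) in the 16 at W3.5 (log2 fold 0.44, SE 0.14, limma adjusted p = 0.0352); the call was lost in 13 of 39 settings. MLOC_52293.1, described as RPM1 in rice, had a median of 19.6 TPM at W5.5, against 15.1 TPM at W3.5 (0.34, limma adjusted p = 0.0184). MLOC_54116.6 had 2.45 TPM at W5.5, against 1.95 TPM at W3.5 (0.33, limma adjusted p = 0.00945). In each of these the 2 stages overlapped in their library ranges.

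Members with named Arabidopsis matches were among the rises. AK361157, with the RPP8 match and an MLA10 description, had a median of 7.60 TPM at W5.5, against 5.84 TPM at W3.5 (log2 fold 0.33, limma adjusted p = 0.00684). MLOC_4344.2 had a median of 13.6 TPM at W5.5, against 11 TPM at W3.5 (0.29, limma adjusted p = 0.00506), and its group mean was higher at W5.5 also in vrs4.k (4.2 against 3.37 TPM). MLOC_64709.2 had 5.45 TPM at W5.5, against 3.76 TPM at W3.5 (0.29, limma adjusted p = 0.00962), with vrs4.k at 0.300 TPM at W5.5, against 0.267 TPM at W3.5. The RPM1 matches MLOC_25314.2 (0.30), AK376198 (0.28) and MLOC_20874.2 (0.20) and the RPS2 match MLOC_65433.1 (0.22) also passed. Of these 4, MLOC_25314.2 kept its call in all 39 settings, and the other 3 lost theirs in 14 to 23. The rise of MLOC_25314.2 was not seen in every line. Its mean was 3.53 TPM at both stages in int-a.1, and in vrs4.k 3.1 TPM at W5.5 against 3.43 TPM at W3.5. MLOC_20874.2 also had a higher mean at W5.5 in only 3 lines, AK376198 in 4 and MLOC_65433.1 in all 5.

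The 1 fall was that of MLOC_767.2, a high-confidence model without a position, which had a median of 2.14 TPM (1.2 to 2.88) at W5.5, against 2.90 TPM (1.30 to 4.32) at W3.5 (log2 fold -0.33, SE 0.105, limma adjusted p = 0.0373). Its mean was lower at W5.5 in all 5 lines, and the call was lost in 15 of 39 settings.

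**Figure D5:**
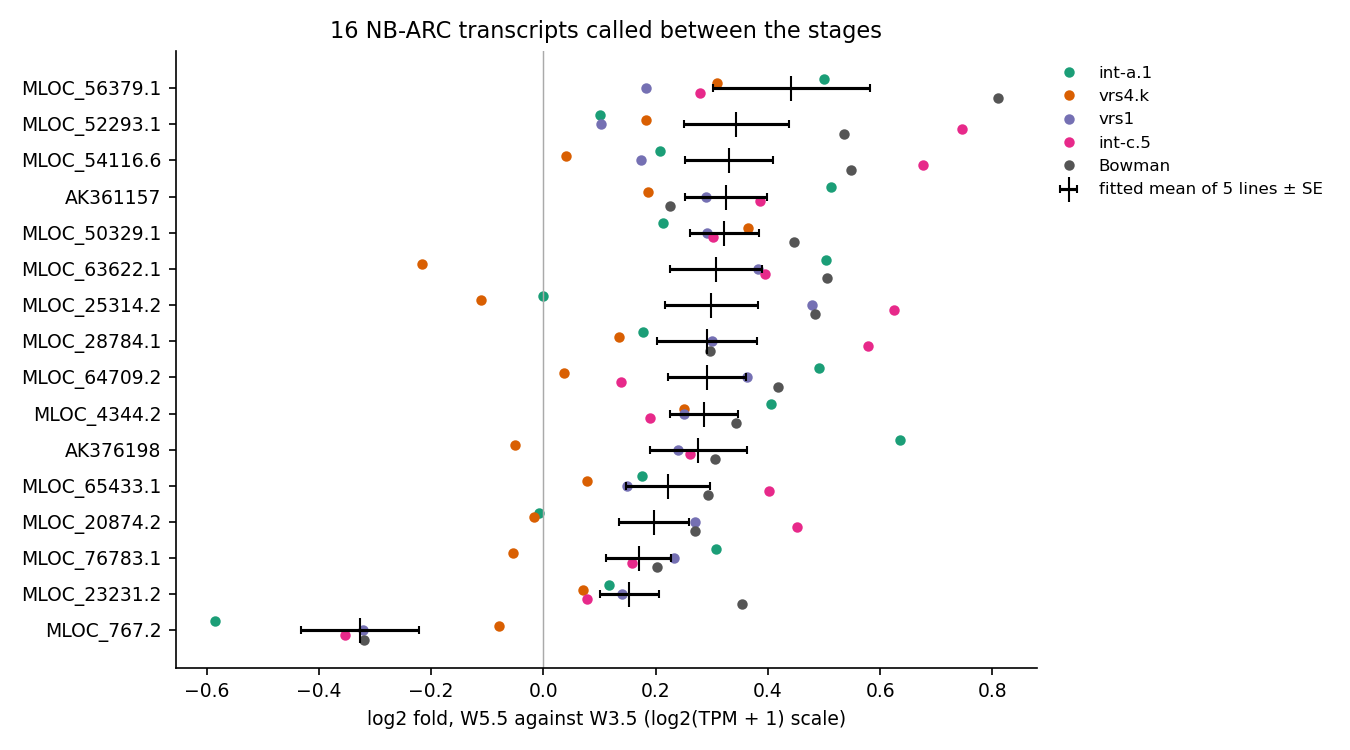
Log2 fold change of W5.5 against W3.5 for the 16 members called between stages. Black bars are the fitted mean of the 5 lines ± SE, and coloured points are each line's fold from its group means of TPM + 1; 15 fitted means lie between 0.15 and 0.44 and that of MLOC_767.2 at -0.33.

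The number of stage calls moved with single libraries. Shares of all transcripts in the fits without 1 library are not given here, so the counts do not show a change particular to the members. The number was 29 without vrs4.k W3.5 replicate 2 and 8 without vrs4.k W3.5 replicate 3, vrs4.k W5.5 replicate 2 or int-c.5 W5.5 replicate 2. It was 9 without int-a.1 W3.5 replicate 3, vrs1 W5.5 replicate 3, vrs4.k W3.5 replicate 1 or int-c.5 W5.5 replicate 3. It was 10 without Bowman W5.5 replicate 2, int-a.1 W3.5 replicate 2, int-a.1 W5.5 replicate 1 or vrs1 W3.5 replicate 1 or 3. Without the 4 libraries beyond the median of the other stage it was 50, where 38.4% of all transcripts were called, and with library weights it was 81, where 50% were. Of 27 leaf marker transcripts (chlorophyll-binding proteins and the small subunit of rubisco), 7 (25.9%) rose and 0 fell at W5.5, against 11.7% and 4.87% of all transcripts. Their summed levels were 688.1 to 1612 TPM per library at W5.5 and 595.3 to 1070 TPM at W3.5. The part of the leaf markers in the stage calls was not tested. In int-c.5 their median log2 fold against Bowman was 0.31 at W3.5 and 0.37 at W5.5, against -0.04 and -0.03 for all transcripts. In the other lines it lay between -0.18 (vrs1 at W5.5) and 0.09 (vrs1 at W3.5). Their part in the line comparisons was not tested either.

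Other parts of plant immunity were looked up through Arabidopsis matches or key words. The list of receptor partners and chaperones had 9 transcripts, of which 0 were called by limma in the 12 line comparisons. Of all transcripts 0.0994% to 2.13% were called in single comparisons, so a count of 0 in 9 does not set the list apart. The list includes matches of EDS1, a signalling hub for TIR receptors (MLOC_67615.1, 4.86 TPM), RIN4 (MLOC_4983.1, 15.4 TPM), and the receptor co-chaperones RAR1 (AK373056, 33.6 TPM) and SGT1 (AK371948, 136 TPM). The chaperone HSP90 stood highest (AK252673.1, 1530 TPM). Between stages 1 of the 9 (11.1%) rose, against 11.7% of all transcripts. It was the RIN4 match MLOC_4983.1 (log2 fold 0.11, limma adjusted p = 0.0461). Over the named receptor list, 51 transcripts were matched, 47 of them members. MLOC_72812.1, a ZAR1 match that is no member since its descriptions lack the key words, fell in vrs4.k averaged over stages (log2 fold -0.47, limma adjusted p = 0.026).

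Of 9 transcripts for surface immunity and MAP kinases, the MPK4 match MLOC_5653.2 rose in int-a.1 averaged over stages (log2 fold 0.29, limma adjusted p = 0.0102), and no other line comparison called one. Among 25 WRKY transcription factor transcripts, the WRKY13 match MLOC_55500.1 fell in int-a.1 at W3.5 (log2 fold -0.88, limma adjusted p = 0.0366) and in vrs1 at W3.5 (-0.94, limma adjusted p = 0.0274), while 5 (20%) of the list rose between stages and 2 (8.0%) fell, against 11.7% and 4.87% of all transcripts. The median stage fold was 0.07 over the WRKY list and over all transcripts. Of 9 MLO transcripts, a family that includes the powdery mildew susceptibility factor of barley, 4 (44.4%) rose between stages, against 11.7% of all transcripts, and 0 were called in a line. Of 168 receptor-like LRR kinases, which act at the cell surface, 12 (7.14%) rose and 2 (1.19%) fell between stages, against 11.7% and 4.87% of all transcripts. In the lines, MLOC_65679.2 was called in int-a.1 (log2 fold 0.34 averaged over stages, limma adjusted p = 0.0238), and MLOC_81219.2 (-0.77, limma adjusted p = 0.0143) and MLOC_6979.1 (-2.32, limma adjusted p = 0.0033) in int-c.5. None of the 8 genes searched for salicylate response and PR proteins was among the Arabidopsis matches (0 transcripts).

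In the authors' deposited table, MLOC_64709.2 had a log2 fold of -2.71 in vrs4.k over both stages (false discovery rate 9.15e-08), and MLOC_4344.2 one of -1.58 (2.2e-12). The authors' deposited table also lists MLOC_77081.1 in vrs1 (0.67, false discovery rate 2.8e-06), AK249642.1 in int-a.1 (-1.04, false discovery rate 0.00161) and MLOC_27405.1 in int-c.5 (-0.73, false discovery rate 0.0481) below a rate of 0.05. In vrs4.k the authors' deposited table also has the hAT-type member MLOC_35138.3 (0.47, false discovery rate 0.00576). By limma MLOC_35138.3 had a log2 fold of 0.43 in vrs4.k averaged over stages and was not called (limma adjusted p = 0.0589). The authors' deposited table does not have MLOC_71780.1 (-1.10, false discovery rate 0.0644) or MLOC_66846.1 (-0.43, false discovery rate 0.0879) below 0.05 in vrs4.k, and has 0 members below it in int-c.5 at W3.5.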

How the data were processed

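Total RNA of barley main shoot apices was sequenced in 32 libraries. Expression values are TPM as the authors deposited them: the file headers call them raw counts, but they are not whole and each library totals 980945 to 987728.5, so they were read as TPM, and depth is unknown. The column of int-c.5 W3.5 replicate 1 was deposited by the authors rounded to whole numbers and was treated as a score on the same scale. The log2 fold changes and the p-values (false discovery rates) of the authors' comparisons are those they deposited. Tools listed in the submitters' processing notes are limma, GATK, Salmon and BWA, with no role for any; no source used here states a genome build. The file headers give the later stage as W5, and the labels as W5.5.

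Columns were assigned to groups by name, with 0 per-sample columns left over; replicate numbers are names only. Values were analysed as log2(TPM + 1) with limma 3.58.1 (R 4.3.3) in 1 model with 10 line and stage groups, with no filter on low values and Benjamini-Hochberg adjustment over 30174 transcripts, and the fit was tested on simulated data. Named are called members without overlap between groups, those called by F, the 5 highest, the largest stage changes and called members with named receptor matches; others are said to be chosen after their values were seen. The members and lists were chosen with earlier results of these data known. Alternatives were a pseudocount of 0.1, a variance trend, quantile and median scaling, only the compared groups, library weights, a mean of at least 1 TPM, leaving out 4 libraries, and leaving out each library in turn. Sequences of the members are not used here.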

Additional observations from a re-analysis of the deposited data

Results flagged for a closer look

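Of 42 groups of 4 libraries examined, 2 held a library that passed Dixon's 95% critical value. The measure is its distance from the nearest other, divided by the range of the group. Chance gives about 1 in 20 where values are not tied. MLOC_4344.2 had 13.1 TPM in Bowman W5.5 replicate 1, against 14.3 to 14.5 TPM in the other 3 Bowman libraries at W5.5. MLOC_28524.1 had 1.0 TPM in Bowman W5.5 replicate 4 and was listed at 0 in the other 3. With the other 3 tied at 0, any value above 0 passes, so this flag tells nothing about its size.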

How the results depend on the processing

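No paired analysis was possible because the labels give sample codes and no replicate numbers shared between groups. Of 40 settings, 32 left out 1 library and 8 changed another choice; no result reversed. Of 25 folds of named members, 12 were lost in no setting, among them those of MLOC_64709.2 and MLOC_4344.2 in vrs4.k. The causes of the changes below were not tested. Where no share of all transcripts stands beside a count, the count alone does not show a change particular to the members. With library weights the members called were 81 between stages (16 as reported), 40 by the F test (8), 13 in int-a.1 at W3.5 (0), 4 at W5.5 (1) and 14 averaged over stages (1), 7 in vrs4.k at W3.5 (2) and 9 averaged (4), 2 in vrs1 averaged (1), 0 in int-c.5 at W3.5 (1) and 3 averaged (1), and 1 in the int-a.1 interaction (0). The shares of all transcripts called with library weights were 50%, 24.9%, 9.07%, 2.22%, 10.3%, 6.29%, 6.53%, 0.945%, 0.205%, 1.45% and 0.686%, in the same order. Without the 4 libraries beyond the median of the other stage they were 50 between stages, 1 in int-a.1 at W3.5, 2 at W5.5 and 3 averaged, 2 in vrs4.k averaged and 0 in int-c.5 at W3.5. With only the compared groups they were 0 in int-a.1 at W5.5 and averaged, 0 in vrs1 at each stage and 0 in int-c.5 at W3.5; that setting does not apply to the stage and F results. Quantile normalization gave 3 in int-a.1 averaged and 0 in int-c.5 at W3.5, median scaling 0 in int-c.5 at W3.5, and the variance trend 5 by the F test. Leaving out 1 library gave 8 to 29 members between stages, 4 to 8 by the F test, 0 to 1 in int-a.1 at W3.5 and at W5.5, 1 to 4 averaged, 2 to 3 in vrs4.k at W3.5, 2 to 2 at W5.5, 3 to 5 averaged, 1 to 1 in vrs1 at W3.5, 0 to 1 at W5.5, 1 to 1 averaged, 0 to 1 in int-c.5 at W3.5, 0 to 0 at W5.5, 0 to 2 averaged and 0 to 0 in each interaction. The depth behind each TPM value is unknown, which limits members at or near 0.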
